A study of Rattus norvegicus with 19 samples.

Results

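This comparison asks what early life stress of the father adds to a high-fat diet of the father in the brains of his daughters. It sets 5 daughters of ELS-HFD fathers (early life stress and high-fat diet) against 4 daughters of HFD fathers (high-fat diet alone), which is 9 of the 19 rats of the series. The members were taken by the father's exposure in the sample titles, which matched the group code in the column names for every library. All 9 rats were female Wistar offspring on chow, so the fathers and not the daughters carried the exposures, and the fathers of both groups had the high-fat diet. The early life stress is described in the series text as maternal separation. All rats took the elevated plus maze, a test of anxiety-like behaviour, on postnatal day 57 ± 1. The tissue is labelled brain, as whole tissue lysate, and the series text names the amygdala. That text speaks of male rats where the sample labels give female offspring, and the labels were followed. The other 10 rats, 5 daughters of control fathers and 5 daughters of ELS fathers, are used here for the shared estimate of spread and as a reference. The labels name no father, litter or library batch, so whether any of the rats are siblings is not known. The p-values set the group difference against the variation between these rats, taken as independent. If rats share a father or litter, the p-values may be too small.

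The amygdala is a group of nuclei in the temporal part of the brain that links sensory input to fear and anxiety responses and takes part in the control of the hormonal stress axis. It lies beside the lateral ventricle, whose choroid plexus secretes cerebrospinal fluid. Transthyretin, a carrier of thyroid hormone and of the retinol-binding protein, is among the most abundant transcripts of choroid plexus epithelium and is scarce in neurons and glia. The deposited file lists Ensembl gene IDs without names, and no ID could be paired with a symbol here. Row ENSRNOG00000016275 is called transthyretin below because the comparison was specified with that identity, which was not checked. Marker genes of the amygdala, of its neighbours and of cell types could therefore not be read, and the tissue label was not tested.

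The 9 libraries held between 7034837 counts (ELS-HFD replicate 2) and 14766188 counts (ELS-HFD replicate 3), and 15372 IDs passed the filter on low counts. HFD replicate 1 stood apart. Its 10 most abundant IDs took 25.8% of its counts, against 10.7% to 16.7% in the other 8 libraries, and its single most abundant ID, the same in every library, took 5.90%, against 2.58% to 3.45%. It was the highest or the lowest of the 9 libraries for 9247 IDs (60.2%), where each other library was so for 10% to 24.5%. The median SD of log2 CPM (an ID's count relative to the library total, scaled by TMM) within the HFD group was 0.41 with it (n = 4) and 0.20 without it (n = 3), and 0.29 in the ELS-HFD group (n = 5). The counts over all IDs, over the tracking IDs and for the interaction are therefore given with and without this library.

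No ID differed between daughters of ELS-HFD and HFD fathers at an adjusted p under 0.05 in edgeR or limma-voom. edgeR's quasi-likelihood test, fitted to all 19 libraries, called 0 of 15372 IDs (0%). An unadjusted p under 0.05 was reached by 519 IDs (3.38%), of which 322 (2.09%) were higher and 197 (1.28%) lower in daughters of ELS-HFD fathers. For limma-voom the numbers were 0 called and 318 below the unadjusted threshold, where the balance turned to 150 higher and 168 lower. DESeq2 called 3 IDs (0.0195%), all higher in ELS-HFD, and put 599 (3.9%) below the unadjusted threshold, 389 (2.53%) higher and 210 (1.37%) lower. The median half-width of the approximate 95% interval of a log2 fold change was 0.44, and for 12035 IDs (78.3%) the whole interval lay between -1 and 1, that is, within a doubling or a halving.

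Without HFD replicate 1 edgeR again called 0 IDs, of 15547 tested (0%), the smallest adjusted p being 0.393, but 1929 (12.4%) now fell below the unadjusted threshold of 0.05, 1079 (6.94%) higher and 850 (5.47%) lower. Of the 519 IDs, 298 were also at an unadjusted p under 0.05 in this fit with the same direction, 206 higher and 92 lower. With the log2 CPM of the transthyretin row as a covariate, edgeR called 0 IDs (0%) and 218 (1.42%) fell below the unadjusted threshold, 82 (0.533%) higher and 136 (0.885%) lower. The balance thus turned from mostly higher to mostly lower. Of the 519 IDs, 92 met the threshold in the same direction with the covariate. With the covariate and without HFD replicate 1 the number was 639 (4.11%), 366 (2.35%) higher and 273 (1.76%) lower, and edgeR called 0 (0%).

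**Figure D1:**
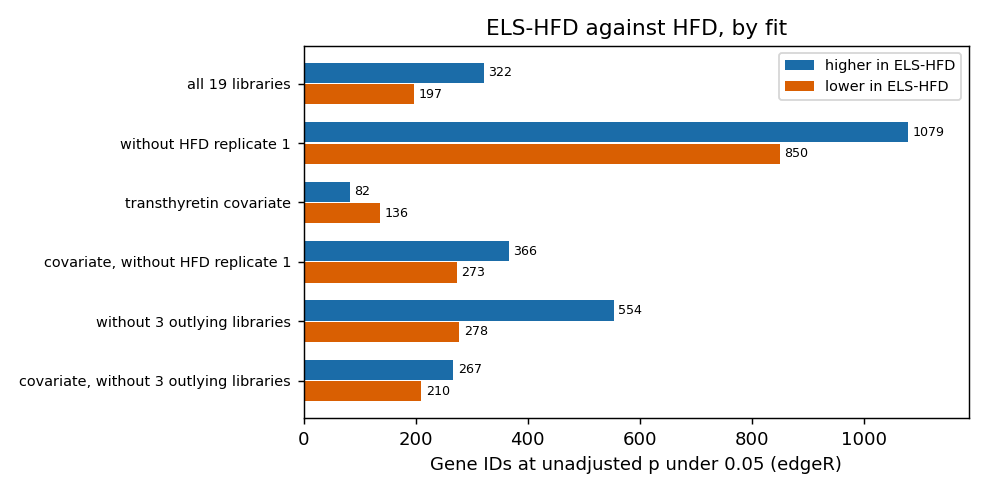
Number of gene IDs at an unadjusted p under 0.05 in edgeR (horizontal axis) for 6 fits of ELS-HFD against HFD, split into IDs higher and lower in ELS-HFD. The counts run from 82 higher and 136 lower with the transthyretin covariate to 1079 higher and 850 lower without HFD replicate 1; none of the 6 fits called an ID at an adjusted p under 0.05.

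The transthyretin row was low in every HFD library and split the ELS-HFD libraries. In the HFD group it stood at 2.30, 2.59, 1.55 and 0.684 CPM in replicates 1 to 4. In the ELS-HFD group it stood at 0.766 CPM in replicate 1, 842 in replicate 2, 833 in replicate 3, 5.10 in replicate 4 and 10590 in replicate 5. Replicates 2, 3 and 5 were thus far above every HFD library, whereas replicate 1 lay within the HFD range and replicate 4 above it. Group means were 2454 ± 4567 CPM (SD, n = 5) and 1.78 ± 0.852 CPM (SD, n = 4). In edgeR the log2 fold change came to 10.40 ± 3.13 (SE) at an adjusted p of 1.00, and DESeq2 gave 10.43 ± 1.84 (SE) with an adjusted p of 0.000113. On log2 CPM the difference of 6.20 was within the spread between animals (exact permutation p = 0.0873, two-sided, adjusted p = 0.175 over 4 tests; 126 splits allow 0.00794), and without HFD replicate 1 it was 6.36 (exact permutation p = 0.0714, adjusted p = 0.175). The daughters of control fathers ranged from 321 to 4632 CPM, and those of ELS fathers had 4 libraries at 0.906 to 6.83 CPM and 1 at 4377 CPM. In bulk tissue, fewer cells of a type and less RNA per cell cannot be told apart. Other markers of choroid plexus could not be read without gene names, so the part of adjacent choroid plexus in these values was not tested.

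**Figure D2:**
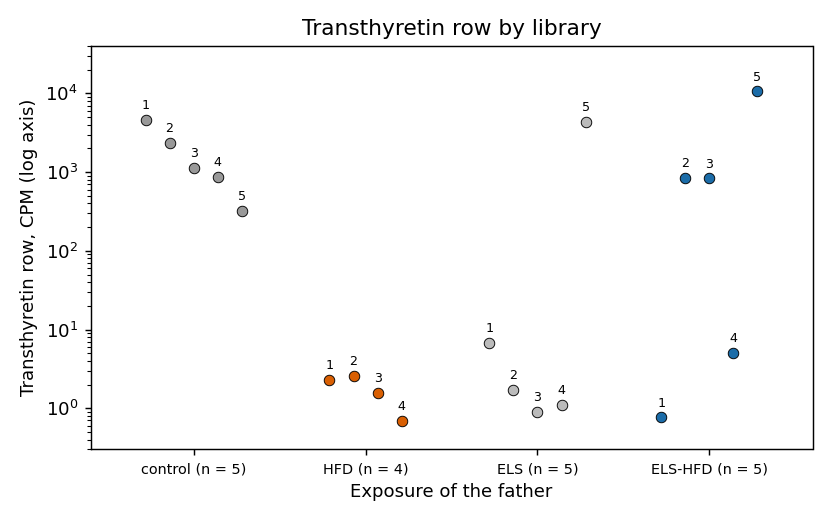
Transthyretin row in CPM (vertical log axis) in each of the 19 libraries, grouped by the father's exposure; each point is 1 rat and its number is the replicate. The 4 HFD libraries lie between 0.684 and 2.59 CPM, and the ELS-HFD libraries split into 0.766 and 5.10 CPM against 833, 842 and 10590 CPM.

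IDs that follow transthyretin were then found in the 10 libraries outside this comparison, those of control and ELS fathers. In those libraries 74 IDs, transthyretin included, had a Pearson r of at least 0.9 with it on log2 CPM. The last inside had r = 0.9004 and the next outside r = 0.8999. In the edgeR fit to all libraries of the series, 50 of the 74 (67.6%) were at an unadjusted p under 0.05 for ELS-HFD against HFD. All 50 were higher in ELS-HFD, beside 2.09% of all IDs. None of the 74 passed after adjustment. Their median log2 fold change was 2.99, against -0.03 over all 15372 IDs. It was also 2.99 with the 6 IDs that had no count in any HFD library set at their lower bound (3 counts over the group). With a minimum r of 0.95, 23 of 24 IDs were at that threshold and higher, and with 0.8, 117 of 304. The control and ELS libraries in which the 74 were chosen also entered this fit's filter and its estimate of spread. With HFD and ELS-HFD libraries only, 48 of the 74 passed the filter, and 22 of the 48 were at that threshold. The 74 were chosen for varying together and are not independent. Their counts beside shares of all IDs, here and below, are therefore described without a test.

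The same libraries carried this group as carried transthyretin. The mean log2 CPM of the other 73 IDs was 0.88, 0.54, 0.84 and 0.57 in HFD replicates 1 to 4. It was 0.70, 2.67, 2.71, 0.51 and 5.19 in ELS-HFD replicates 1 to 5. The groups thus overlapped, since ELS-HFD replicates 1 and 4 lay at the HFD level. ELS-HFD replicates 2, 3 and 5 were all above both other ELS-HFD libraries for 62 of the 73 IDs and above every HFD library for 48, and replicate 5 was the highest of the 9 libraries for 65. These 73 IDs took 0.930% of the counts of ELS-HFD replicate 5 and 0.170% to 0.213% of those of the HFD libraries. Leaving out 1 library decided the count: without ELS-HFD replicate 5, 7 of the 72 IDs still tested were at an unadjusted p under 0.05, and the median log2 fold change was 1.21. limma-voom put 2 of the 74 at that threshold, and 22 were there when edgeR was fitted to HFD and ELS-HFD libraries only. The filter on low counts kept 48 of the 74 in that last fit, with a median log2 fold change of 1.60, since the rest passed only through control and ELS libraries. A block for the replicate number left 11 of 74. Without HFD replicate 1, 51 of 74 were higher at an unadjusted p under 0.05, beside 6.94% of all IDs.

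**Figure D3:**
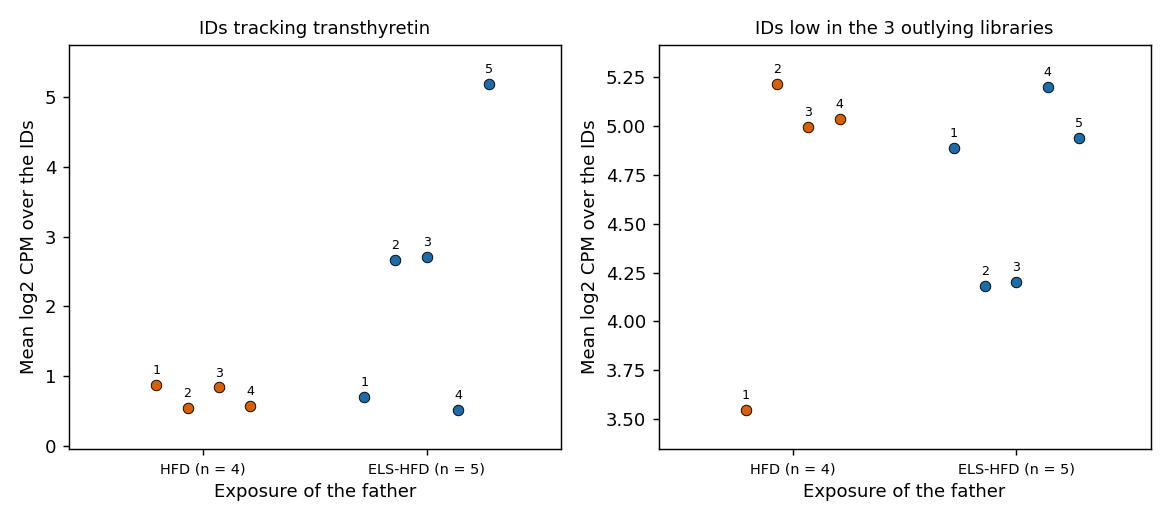
Mean log2 CPM (vertical axes) in each HFD and ELS-HFD library; points are rats, numbered by replicate. Left, the 73 IDs that track transthyretin, where ELS-HFD replicates 2, 3 and 5 stand at 2.67, 2.71 and 5.19 and the other 6 libraries between 0.51 and 0.88; right, the 2271 IDs that were lowest in HFD replicate 1 and ELS-HFD replicates 2 and 3.

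With the transthyretin covariate the fitted differences of the group turned mostly negative, 63 of 74 against 11 positive. The 74 IDs were chosen for following the covariate itself, in 10 of the 19 libraries that set its slope, so that they are no longer higher under it follows from the choice and supports nothing. None of the 74 was higher at an unadjusted p under 0.05, beside 0.533% of all IDs, and 8 were lower, beside 0.885%. Their median log2 fold change was -0.53. The slope on transthyretin, fitted over all 19 libraries, passed at an adjusted p under 0.05 in edgeR for 378 IDs (2.46%), of which 375 rose with it. The HFD libraries span only 0.684 to 2.59 CPM of transthyretin, so the fit takes the slope mainly from the other 3 groups and carries it over to this one.

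ENSRNOG00000036826 had the highest fitted log2 fold change of all IDs and tracked transthyretin (r = 0.96 in the 10 other libraries). It had 0 counts in all 4 HFD libraries. In the ELS-HFD group it had 0 counts in replicate 1, 179 in replicate 2, 378 in replicate 3, 2 in replicate 4 and 749 in replicate 5, which is 0, 25.1, 26.0, 0.148 and 62.0 CPM. Set against the upper limit that 0 counts allow (3 counts over the HFD group, 0.0605 CPM), the pooled ELS-HFD level of 21.7 CPM was at least 358-fold higher, for counting error only. The fitted log2 fold change was 11.28 ± 3.98 (SE) in edgeR and 25.43 ± 2.64 (SE) in DESeq2. With 0 counts in all HFD libraries, the data set no upper limit to either value. The edgeR adjusted p was 1.00 and that of DESeq2 8.65e-18, although 2 of the 5 libraries were at or near 0. It was 1 of the 3 IDs DESeq2 called; the others were the transthyretin row and a further ID of the 74. The covariate brought its fold change in edgeR to 3.15 ± 1.88 (SE) on the log2 scale, at an unadjusted p of 0.114 and an adjusted p of 1.00.

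**Figure D4:**
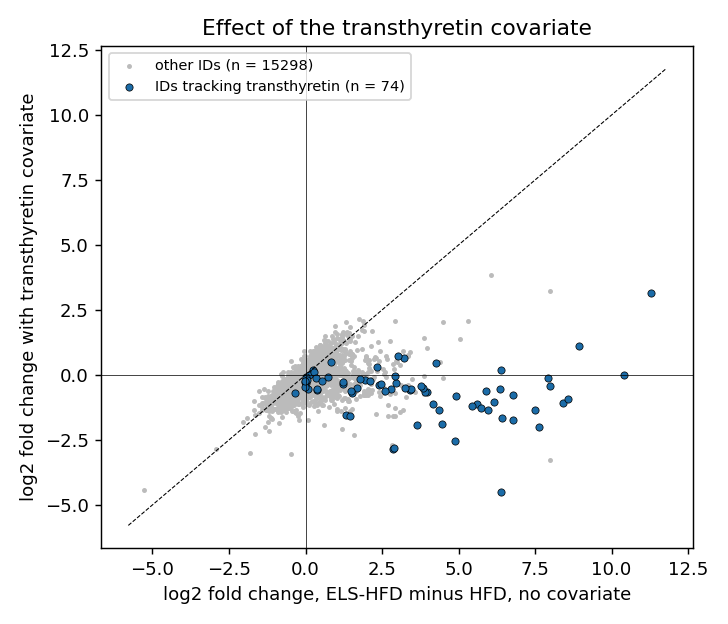
Log2 fold change of each of 15372 IDs, ELS-HFD minus HFD, from edgeR without a covariate (horizontal axis) and with the transthyretin row as covariate (vertical axis); the dashed line marks equal values. The 74 tracking IDs have a median of 2.99 on the horizontal and -0.53 on the vertical axis.

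Many IDs departed from the other libraries jointly in HFD replicate 1 and 2 ELS-HFD libraries. For 2271 IDs (14.8%) HFD replicate 1 and ELS-HFD replicates 2 and 3 were all lower than every one of the other 16 libraries of the series, and for 1210 (7.87%) all higher. These IDs were chosen by those values and are described without a test. The mean log2 CPM of the 2271 was 3.55 in HFD replicate 1 and 4.996 to 5.22 in the other HFD libraries. In the ELS-HFD group it was 4.18 and 4.20 in replicates 2 and 3, and 4.89 to 5.20 in the others. With 1 such library among 4 on one side and 2 among 5 on the other, the group means nearly met, at 4.70 ± 0.77 (SD, n = 4) in HFD and 4.68 ± 0.46 (SD, n = 5) in ELS-HFD.

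Leaving out HFD replicate 1 alone left these departures on the ELS-HFD side only, so the choice of these IDs largely set their direction in that fit. Of the 2271, 2170 were then lower and 101 higher in ELS-HFD, and of the 1210, 1194 were higher and 16 lower. The following shares describe the fit and support nothing about it. Of the 844 IDs of the first filter that were then lower at an unadjusted p under 0.05, 491 (58.2%) belonged to the 2271. Of the 1067 then higher, 316 (29.6%) belonged to the 1210, and 51 were tracking IDs. With all 3 libraries left out, edgeR called 0 of 15470 IDs (0%) and 832 (5.38%) fell below the unadjusted threshold, 554 (3.58%) higher and 278 (1.8%) lower. Of the 2271 IDs, 22 were then higher and 44 lower. Adding the covariate to this fit gave 0 called (0%) and 477 (3.08%) below the unadjusted threshold, 267 (1.73%) higher and 210 (1.36%) lower. The transthyretin row was high in ELS-HFD replicates 2 and 3 and low in HFD replicate 1, so among the 3 outlying libraries the departure was shared and the transthyretin level was not. The part of tissue composition or RNA quality in this departure was not tested.

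Few IDs separated the groups completely. The 5 ELS-HFD libraries were all above the 4 HFD libraries for 29 IDs (0.189%) and all below for 38 (0.247%), and only 2 of these 67 tracked transthyretin. Without HFD replicate 1 the numbers were 256 (1.67%) and 224 (1.46%). Across the fit to all libraries, the fit without HFD replicate 1 and the fit with the covariate, 55 IDs kept 1 direction at an unadjusted p under 0.05 in all 3, 32 higher and 23 lower. Tracking IDs are absent from the 55, which the requirement to pass with the covariate makes a matter of construction. Of the 55, 13 also had groups that did not overlap, 6 higher by a log2 fold change of 0.26 to 1.51 and 7 lower by -5.29 to -0.43.

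A run of neighbouring rows of the deposited file held 6 of these 13 IDs. Rows 17417 to 17429 of 32883 hold 11 IDs that passed the filter, and 9 of the 11 were at an unadjusted p under 0.05 in edgeR (p from 0.000571 to 0.021), beside 3.38% of all IDs. Of the 9, 5 were higher in ELS-HFD, by a log2 fold change of 0.66 to 1.85, and 4 lower, by -5.29 to -0.43. Among windows of 20 consecutive tested IDs, 52.4% held no such ID and no window clear of this run held more than 4. The run was taken where such a window held the most of these IDs, and its ends were cut at the first and last of them. The 9 of 11 and the gap to other windows thus come from a choice made on these p-values, and they are described without a test. All 9 remained at an unadjusted p under 0.05 in the same direction without HFD replicate 1 and with the transthyretin covariate, and 8 remained at that threshold with the 3 outlying libraries left out. These fits, and those below that leave out 1 library, share most libraries with the fit that chose the 9. That the IDs remained in them is therefore described and supports nothing. None of the 9 was among the 74 tracking IDs. Leaving out each of the 19 libraries in turn kept between 7 and 9 of the 11 IDs at that threshold, whereas a fit to these 2 groups alone left 3, with 8 of the 11 IDs, and 6 of the 9, still passing the filter on low counts. HFD replicate 2 stood apart from its group across the run: it was nearer to the ELS-HFD mean than to the HFD mean for 6 of the 9 IDs, where each other HFD library was so for 0 or 1. Without it 9 of the 11 IDs were below the threshold. The run was noticed after the values were seen, whether the order of rows follows the genome is not given, and all 9 IDs had adjusted p-values of 1.00. The 9 IDs were low in abundance, with means over the 9 libraries of 0.478 to 12.01 CPM.

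ENSRNOG00000060523, in this run, was higher in every ELS-HFD library than in every HFD library. It stood at 4.41, 4.76, 4.93 and 0 CPM in HFD replicates 1 to 4, the last being 0 counts. It stood at 8.35, 10.2, 10.2, 13.2 and 9.03 CPM in ELS-HFD replicates 1 to 5. The means were 3.53 ± 2.36 CPM (SD, n = 4) and 10.2 ± 1.87 CPM (SD, n = 5), a log2 difference of 1.51 ± 0.50 (SE) in edgeR, at an unadjusted p of 0.00658 and an adjusted p of 1.00. In the other groups it was at 4.60 to 5.75 CPM in all 5 control libraries, at 4.62 CPM in ELS replicate 1 and at 7.75 to 11.9 CPM in the other 4 ELS libraries.

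ENSRNOG00000029386, 3 rows further on in the file, had the smallest p of the comparison, and the opposite direction. It had 71, 10, 85 and 88 counts in HFD replicates 1 to 4, and 1, 0, 3, 4 and 0 counts in ELS-HFD replicates 1 to 5. The groups did not overlap. In CPM the means were 5.45 ± 3.36 (SD, n = 4) and 0.116 ± 0.131 (SD, n = 5). edgeR put the log2 fold change at -5.29 ± 1.28 (SE), the unadjusted p at 0.000571 and the adjusted p at 1.00. HFD replicate 2, at 0.6997 CPM, was the low library of its group. The log2 fold change was -5.17 without HFD replicate 1 and -4.43 with the covariate (unadjusted p of 0.00113 and 0.0113 in edgeR).

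ENSRNOG00000031053 lies elsewhere in the file and was the most abundant of the 13 IDs. It was at 4292, 3325, 3139 and 3264 CPM in HFD replicates 1 to 4 and at 2518, 1967, 2288, 2901 and 1790 CPM in ELS-HFD replicates 1 to 5. Every ELS-HFD library was below every HFD library, with HFD replicate 1 the highest of all. The log2 fold change in edgeR was -0.61 ± 0.16 (SE), at an unadjusted p of 0.000877 and an adjusted p of 1.00. It was -0.48 without HFD replicate 1 and -0.34 with the covariate (unadjusted p of 0.00559 and 0.0206 in edgeR), and -0.20 with both changes (unadjusted p of 0.104).

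**Figure D5:**
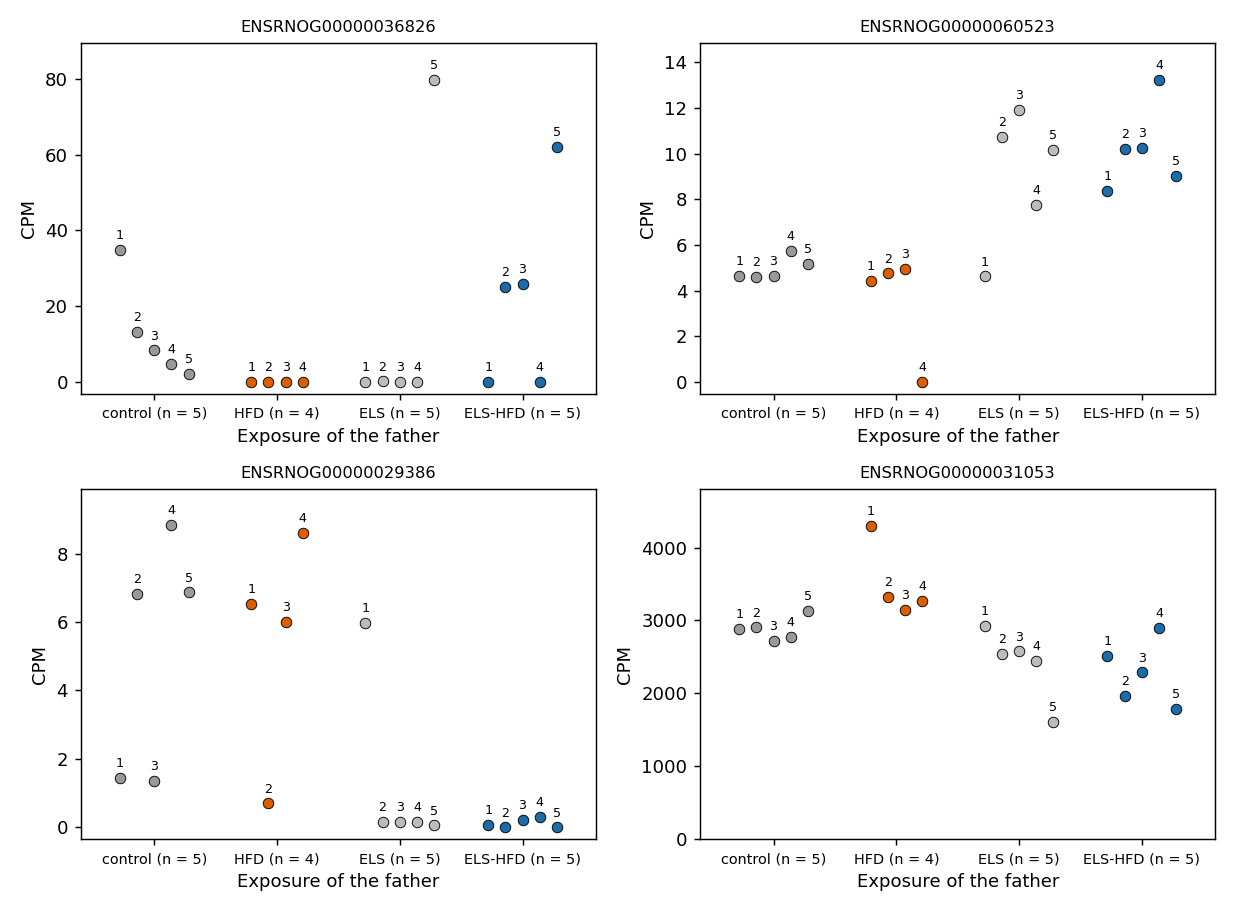
CPM (vertical axes) of 4 gene IDs in each of the 19 libraries, grouped by the father's exposure; each point is 1 rat, numbered by replicate. ENSRNOG00000036826 is at 0 in all HFD libraries and up to 62.0 CPM in ELS-HFD, ENSRNOG00000060523 is higher in every ELS-HFD than in every HFD library, and ENSRNOG00000029386 and ENSRNOG00000031053 are lower in every ELS-HFD than in every HFD library.

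The direction of the IDs below the unadjusted threshold varied with abundance. Among the 4588 IDs with a mean of 1 to 10 CPM over the 9 libraries, 3.97% were higher and 1.2% lower below that threshold, and these had a median absolute log2 fold change of 1.22. Among the 2006 IDs at 100 CPM and over, 0.548% were higher and 1.1% lower, with a median of 0.30 for these. Higher IDs thus outnumbered lower ones among the scarcer IDs and not among the abundant ones. Over all IDs the excess of higher ones rested on single libraries. Without ELS-HFD replicate 5 there were 124 higher and 182 lower in edgeR, and without HFD replicate 2 there were 256 and 274. The split by abundance was not repeated without these libraries. The median SE was 0.32 in the first range and 0.13 in the second.

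The same stress in fathers without the diet was compared between ELS and control libraries, none of which is part of the comparison above. Of the 519 IDs, 38 (7.32%) were also at an unadjusted p under 0.05 there, beside 668 of all 15372 (4.35%). Of the 38, 9 had the same direction and 29 the opposite one. Of the 322 IDs higher in ELS-HFD than in HFD, 264 were lower in ELS than in control, where 50.4% of all IDs were lower. The transthyretin row was high in all 5 control libraries and in 1 of 5 ELS libraries. Of the 322, 117 had a Pearson r of at least 0.8 with it in those 10 libraries, beside 304 of all 15372 IDs. The same 10 libraries give the direction in ELS against control. The part of the transthyretin level in the opposite direction was not tested. For the 9 IDs of the run of rows, 8 had the same direction in both comparisons, and 2 of the 9 were at an unadjusted p under 0.05 in ELS against control. The test of whether the stress difference depends on the diet, edgeR's interaction of both exposures, called none (0 IDs, 0%), and 788 (5.13%) fell below the unadjusted threshold. DESeq2 called 5 IDs for this interaction and limma-voom 0. Without HFD replicate 1 edgeR still called 0, but 3135 IDs (20.2%) fell below the unadjusted threshold, and DESeq2 called 234. That fit keeps ELS-HFD replicates 2 and 3, the other outlying libraries. Without all 3 the number in edgeR was 2016 (13%), and 1211 (7.83%) with the covariate added. With the covariate alone it was 424 (2.76%), and 967 (6.22%) with the covariate and without HFD replicate 1. edgeR called 0 in each. In the edgeR interaction fit to all 19 libraries, 55 of the 74 tracking IDs had a positive interaction at an unadjusted p under 0.05, beside 2.84% of all IDs. Positive means that the signed stress difference was greater with the diet than without it. The control and ELS libraries that enter this interaction are those in which the 74 IDs were chosen. That choice largely set the sign, so the 55 support nothing. For the transthyretin row the log2 fold change of ELS against control was -1.08 in edgeR, opposite to that of ELS-HFD against HFD. Its interaction of 11.48 had an unadjusted p of 0.00401 and an adjusted p of 0.969.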

How the data were processed

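RNA was extracted from brain lysate of 19 rats, and about 400 ng per sample was enriched for polyadenylated RNA and primed at random, per the labels' protocols. The table deposited by the authors holds raw counts, as whole numbers for each Ensembl ID and library, per the file headers. Per the submitters' processing notes, the build was Rnor_6.0 and DESeq2 was used. No aligner, annotation release or strand setting is given, so overlapping or near-identical genes may share reads. The reference table paired 0 of 32883 IDs with a symbol, so the 39 gene lists and the rule for named genes could not be applied; 4 IDs beside transthyretin were chosen after their values were seen. The members and lists were chosen with earlier results of these data known.

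IDs were kept by filterByExpr (15372 of 32883, at least 99.9% of counts per library), scaled by TMM and tested with edgeR 4.0.16 (quasi-likelihood F test, R 4.3.3) in 1 fit over the 4 groups, with Benjamini-Hochberg adjustment over all IDs. The SE is the log2 fold change divided by the square root of F. Log2 CPM used a prior count of 2. limma 3.58.1 and DESeq2 1.42.0 were alternatives, 35 settings in all. The fit was tested on simulated data. The 16 pairs of libraries within the 2 groups differed by more than sampling noise (chi-square per degree of freedom 5.03 to 169).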

Additional observations from a re-analysis of the deposited data

Results flagged for a closer look

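Values were screened in 17 sets of 4 or 5 libraries for 1 that lies far outside the others, which chance alone gives in about 1 in 20 sets. The screen marked 5 sets. They overlap in libraries, and the IDs among them were chosen after their values were seen. Both measures of count concentration marked HFD replicate 1, whose 10 most abundant IDs held 25.8% and whose most abundant ID held 5.90% of its counts. The total of HFD replicate 4, 10092297 counts, was the lowest of its group by a wide gap. The same rat was far below its group in ENSRNOG00000060523, at -2.78 log2 CPM, which stands for 0 counts. In ENSRNOG00000029386 it was HFD replicate 2 that lay far below, at -0.24 log2 CPM.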

How the results depend on the processing

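Counts of called IDs were 0 in 33 of 35 alternatives; DESeq2 called 3, and 3 again without HFD replicate 1 (chosen after seeing the data). The 519 IDs at an unadjusted p under 0.05 became 1929 without HFD replicate 1, 218 with the transthyretin covariate, 832 without the 3 outlying libraries, 318 with limma-voom, 1634 with limma-voom and sample quality weights, 805 with no filter on low counts, 2032 with DESeq2 without HFD replicate 1, and 213, 852 and 119 in the 2 groups alone, these without HFD replicate 1, and these with the covariate. Leaving out 1 library gave 306 (ELS-HFD replicate 5) to 1929 (HFD replicate 1), with 897 without ELS-HFD replicate 4. With quality weights the split turned to 567 higher and 1067 lower, and with limma-voom to 150 and 168. It also turned when 1 library was left out: to 124 higher and 182 lower without ELS-HFD replicate 5, and to 256 and 274 without HFD replicate 2.

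With the replicate number as a block, the 519 became 285 and edgeR called 0. Same-numbered HFD and ELS-HFD libraries deviated from their group means with r of -0.17, -0.44, -0.34 and 0.24 across IDs, so the numbers were not taken to pair animals. Of the tracking IDs, the 50 higher ones became 11 with the block, 0 with the covariate in all 4 fits that had it, 2 with limma-voom, 7 with quality weights and 22 in the 2 groups alone (48 of the 74 tested there), and 7 to 56 when 1 library was left out. The 9 of 11 IDs of the run of rows became 3, 4 and 2 in the 2 groups alone, these without HFD replicate 1, and these with the covariate, where 8 of the 11 passed the filter and were tested, and 7 to 9 when 1 library was left out. The interaction calls were 0 except for 5 with DESeq2, 234 with DESeq2 without HFD replicate 1, and 0 to 12 when 1 library was left out (12 without ELS replicate 5). No printed ID reversed its direction. The cause of these changes was not tested.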
